A study of Mus musculus with 7 samples.

Results

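Cajal-Retzius neuron genes were described here as 8 genes, Reln, Trp73, Lhx1, Lhx5, Calb2, Ebf2, Ebf3 and Nhlh2, chosen by name with a rule that uses no measured value, though with earlier results of these arrays known. Every probe whose transcript carried one of these symbols was taken, which gave 11 probes: 3 for Calb2, 2 for Ebf3 and 1 for each other gene. All 8 genes were among the 13350 genes tested, out of 17145 genes with a named probe. Cajal-Retzius neurons are among the earliest-born neurons of the telencephalon. They settle in the marginal zone below the meninges and secrete Reelin, the glycoprotein that guides the layering of later-born neurons. Their known birthplaces lie at the borders of the pallium: the cortical hem, the septum, the ventral pallium and the thalamic eminence.

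Messenger RNA was measured on single-colour Agilent arrays in microdissected ganglionic eminences and septum at E12.5; the embryos were female CD-1 mice, and each array held 1 embryo. Dlx1, Dlx2 and Gad1, which define the subpallium, were well above background on all 7 arrays. The 4 control embryos are given by the labels as controls, with no genotype beyond that word. The 3 embryos labelled Otx2 cKO carried a floxed Otx2 allele and RxCre, a Cre line active across the forebrain but not in a caudal dorsomedial domain that holds the cortical hem and choroid plexus, so 1 known source of Cajal-Retzius neurons lies outside the recombined territory. The arrays lay on 2 slides: control replicates 1 and 2 shared slide 1 with cKO replicate 1, and the rest were on slide 2. The litter labels have the form of a number, a point and a second number, and were read as litter and embryo; every litter value here rests on that reading. So read, litter 2 held 2 controls (replicates 2 and 3) and 2 cKO-labelled embryos (replicates 1 and 3), and the remaining embryos were each alone in their litter. Levels are log2 signals relative to the 75th percentile of the same array, so 0 is the level of that percentile, and levels of different probes are not compared.

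The probe of the targeted gene, Otx2, went against the labels. Its log2 level was 0.00, 0.33, 0.23 and 0.38 in the controls (replicates 1 to 4, the order kept throughout) and 1.63, 2.01 and 1.59 in the cKO-labelled arrays (replicates 1 to 3). It rose there by 1.51 ± 0.14 (limma, SE, n = 4 and 3, adjusted p = 0.0182). The sources used here do not give the position of this probe relative to the deleted part, so it checks nothing about the genotype. Groups are called by their labels, and every direction below rests on them. The call was lost without control replicate 2, 3 or 4 or without cKO replicate 2 or 3, with differences of 1.54, 1.51, 1.56, 1.38 and 1.58 in that order. It held in 16 of 28 alternatives (adjusted p 0.00262 to 1).

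None of the 8 Cajal-Retzius genes passed the test between the groups (limma, Benjamini-Hochberg over all genes tested, threshold 0.05), beside 0.195% of all genes tested (0.0824% called higher and 0.112% called lower). At an unadjusted p under 0.05 there were 4 of the 8, Reln, Trp73, Lhx5 and Nhlh2, beside 10.7% of all genes. The log2 levels of the groups did not overlap for 3 of the 8, Lhx5 and Nhlh2 higher and Trp73 lower in every cKO-labelled array, beside 11.8% of all genes (4.85% higher and 6.99% lower). With 8 genes, these shares are a description only. Of the 8 differences 5 were positive and 3 negative, with a median of 0.11 on the log2 scale against 0.01 over all genes tested. This median was 0.04 without cKO replicate 1, 0.06 without control replicate 1 and -0.01 to 0.17 over 11 alternatives. The absence of a call does not show equal levels. The 95% intervals given below for the brightest probes include differences of up to 0.93, and the median SE over all genes was 0.13. With slide as a block the differences of Reln, Trp73, Lhx5 and Nhlh2, given in full below, were -0.31, -0.39, 0.59 and 0.44, and none passed.

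**Figure D1:**
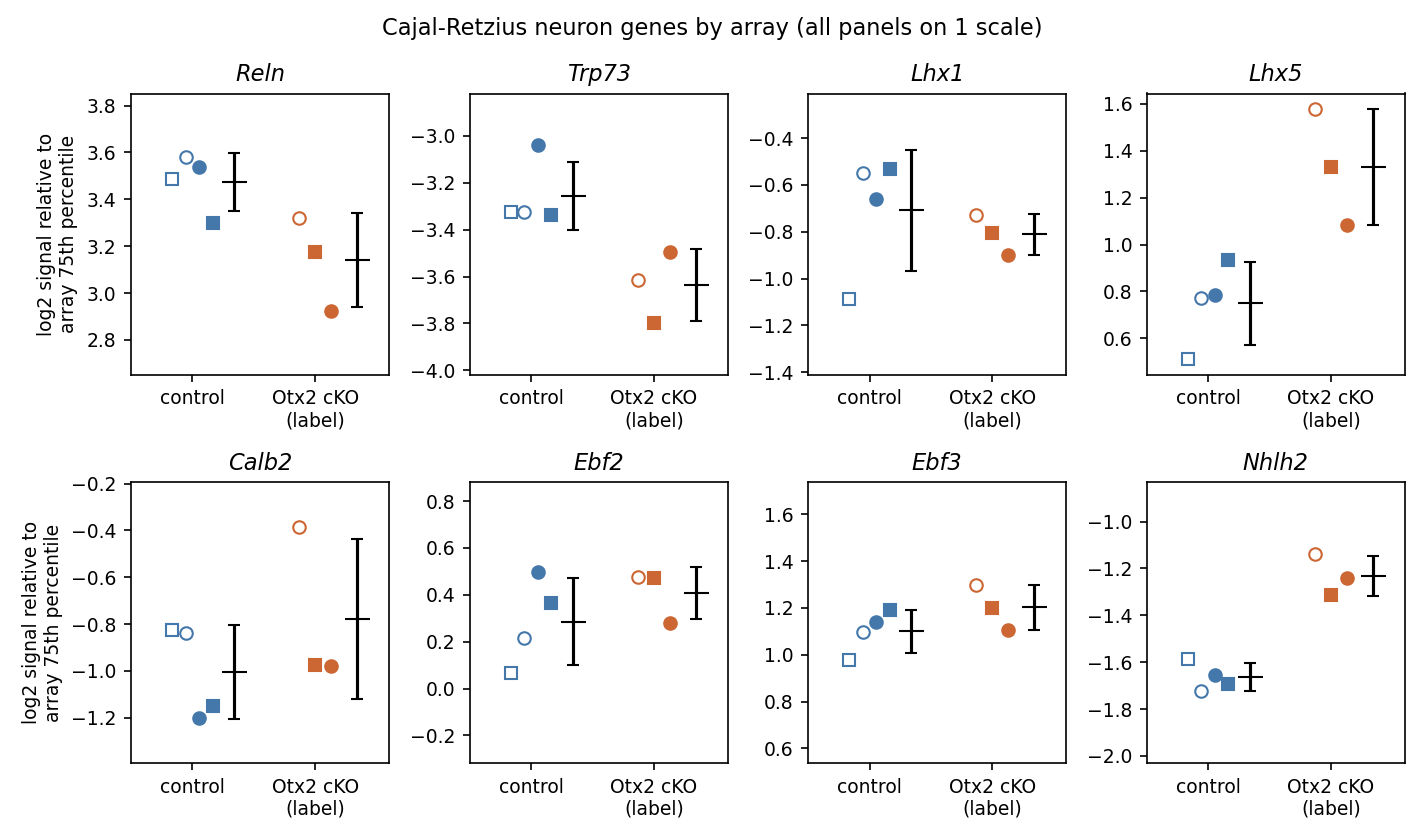
Log2 signal relative to the array's 75th percentile (y axis) for the 8 Cajal-Retzius genes, by group; each point is 1 embryo, open on slide 1 and filled on slide 2, a circle for litter 2 and a square for the other litters, and the black bar is the mean with its SD (n = 4 and 3). Trp73 lies lower and Lhx5 and Nhlh2 higher in every cKO-labelled array than in any control, while the other 5 genes overlap.

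Reln, Trp73 and Nhlh2 had promoter windows in RefSeq's GRCm38.p6 set, and their 250 bases upstream of the annotated start are printed, 5′ to 3′ on the gene's strand, because these are the genes whose levels the account turns on. Reln, on chromosome 5, lies on the minus strand (chr5:22344706-22344955). Trp73, on chromosome 4, has an inner start (chr4:154097174-154097423, minus) and an outer start (chr4:154139876-154140125, minus). Which of their transcripts its single probe detects was not checked. Nhlh2, on chromosome 3, lies on the plus strand (chr3:102009895-102010144). No letters are in capitals because no motif was found in them.
Reln: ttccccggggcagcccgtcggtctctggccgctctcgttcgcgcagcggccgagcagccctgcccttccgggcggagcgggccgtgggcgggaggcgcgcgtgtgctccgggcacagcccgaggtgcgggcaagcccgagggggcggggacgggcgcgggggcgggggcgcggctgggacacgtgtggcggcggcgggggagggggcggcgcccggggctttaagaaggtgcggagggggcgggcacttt
Trp73, inner start: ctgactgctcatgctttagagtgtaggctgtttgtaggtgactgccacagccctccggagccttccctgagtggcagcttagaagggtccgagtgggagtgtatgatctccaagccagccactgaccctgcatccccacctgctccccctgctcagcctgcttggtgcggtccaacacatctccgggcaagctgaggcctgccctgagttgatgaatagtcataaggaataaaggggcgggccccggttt
Trp73, outer start: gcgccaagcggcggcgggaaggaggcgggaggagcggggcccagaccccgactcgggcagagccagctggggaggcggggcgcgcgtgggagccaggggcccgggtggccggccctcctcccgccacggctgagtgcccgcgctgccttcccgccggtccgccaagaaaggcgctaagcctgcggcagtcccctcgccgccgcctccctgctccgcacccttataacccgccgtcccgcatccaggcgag
Nhlh2: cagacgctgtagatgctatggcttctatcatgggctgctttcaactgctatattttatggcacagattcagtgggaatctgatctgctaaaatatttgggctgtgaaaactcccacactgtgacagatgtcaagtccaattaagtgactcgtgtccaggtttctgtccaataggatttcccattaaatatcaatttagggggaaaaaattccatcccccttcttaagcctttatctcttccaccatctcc
Over the whole 300-base windows, which run 50 bases past the start, G and C made up 80.7% for Reln, 57.7% and 77.7% for the inner and outer starts of Trp73 and 43.3% for Nhlh2. Of the 8 genes 5 had a window, Reln, Trp73, Lhx1, Ebf3 and Nhlh2, with 6 windows in all. The core motif of Otx homeodomains, TAATCC, was searched on both strands. It was in 0 of the 6 windows, in 7.06% of all 32851 windows and in 5.66% of the 13614 windows of genes tested. These letters are not in these windows, and nothing about binding follows from that.

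Reln encodes Reelin, the secreted ligand that defines these neurons. Its log2 level was 3.49, 3.58, 3.54 and 3.30 in the controls and 3.32, 3.18 and 2.92 in the cKO-labelled arrays. The cKO-labelled arrays were at the low end, and the groups overlapped by a single pair, since cKO replicate 1 stood just above control replicate 4. The difference was -0.34 ± 0.12 (SE; 95% interval -0.62 to -0.05; limma, adjusted p = 0.413), a 1.26-fold lower mean. The Reln probe is printed at 10 spots per array, of which 7 to 8 were unflagged; the SD among those spots had a median of 0.0749 over arrays, below the SD between embryos of 0.12 in controls and 0.20 in cKO-labelled arrays. The difference was -0.21 within slide 1, -0.37 within slide 2 and -0.44 within litter 2. Without cKO replicate 3 it was -0.23. Without the 3 arrays whose mesenchyme level stood farthest out it was -0.52. That setting leaves 1 cKO-labelled embryo, replicate 3, which had the lowest Reln level of all arrays. Over all 28 alternatives the difference stayed negative. In dissected tissue, fewer cells of a type and less RNA per cell cannot be told apart, here or for any gene below.

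Trp73 encodes p73, a p53-family transcription factor needed for the survival of Cajal-Retzius neurons and a marker of those from the hem and septum. Its log2 level was -3.32, -3.32, -3.04 and -3.34 in the controls and -3.62, -3.80 and -3.49 in the cKO-labelled arrays. Every cKO-labelled array was below every control, and control replicate 3 stood above the other controls. The difference was -0.38 ± 0.12 (SE; 95% interval -0.65 to -0.11; limma, adjusted p = 0.338), or 1.30-fold lower. Taken on slide 1 alone it was -0.29, on slide 2 alone -0.46 and in litter 2 alone -0.37, and it was -0.31 without control replicate 3. Over the 28 alternatives it ran from -0.46 to -0.26 and never passed the threshold.

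Lhx1 and Lhx5 encode closely related LIM-homeodomain transcription factors of Cajal-Retzius neurons, which other neurons of the basal forebrain and diencephalon also express. The log2 level of Lhx5 was 0.51, 0.77, 0.78 and 0.93 in the controls and 1.58, 1.33 and 1.08 in the cKO-labelled arrays. All cKO-labelled arrays were above all controls, with cKO replicate 3 close to control replicate 4. The difference was 0.58 ± 0.15 (SE; 95% interval 0.23 to 0.93; limma, adjusted p = 0.285), 1.50-fold higher and the largest of the 8 genes on their brightest probes. Its size moved with the arrays compared: 0.94 within slide 1, 0.35 within slide 2 and 0.56 within litter 2. The difference was 0.34 without control replicate 2 and cKO replicates 1 and 2, with cKO replicate 3 alone in its group. It was positive in 28 of 28 alternatives.

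For Lhx1 the log2 level was -1.09, -0.55, -0.66 and -0.53 in the controls and -0.73, -0.81 and -0.90 in the cKO-labelled arrays. The cKO-labelled arrays lay inside the range of the controls, which control replicate 1 widened downwards. The difference was -0.10 ± 0.15 (SE; 95% interval -0.46 to 0.25; limma, adjusted p = 0.842). Its probe is printed at 10 spots, whose SD had a median of 0.120, against 0.26 between control embryos and 0.0867 between cKO-labelled embryos. It was -0.23 without control replicate 1, -0.05 without control replicate 2, -0.05 without control replicate 4 and -0.06 without cKO replicate 3. The sign followed the slide, at 0.09 within slide 1 and -0.26 within slide 2.

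Calb2 encodes calretinin, a calcium-binding protein of Cajal-Retzius neurons that some interneurons and septal neurons also make. The log2 level of its brightest probe, A_52_P571780, was -0.82, -0.84, -1.20 and -1.15 in the controls and -0.39, -0.97 and -0.98 in the cKO-labelled arrays, so only cKO replicate 1 left the control range. The difference was 0.22 ± 0.18 (SE; 95% interval -0.21 to 0.66; limma, adjusted p = 0.701), and it was 0.03 without cKO replicate 1. On each slide the cKO-labelled arrays were above the controls of that slide, by 0.44 within slide 1 and 0.20 within slide 2. With slide as a block the difference was 0.30 ± 0.08 (limma, adjusted p = 0.269). The probe A_51_P311436 gave 0.16 ± 0.14. The dimmest, A_52_P556433, ran from -3.85 to -3.60 in controls and from -3.54 to -3.19 in cKO-labelled arrays, with no overlap and a difference of 0.37 ± 0.12 (limma, adjusted p = 0.474 over all probes). The probes thus shared a sign and differed in whether the groups overlapped.

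Ebf2 and Ebf3 encode transcription factors of the COE helix-loop-helix family, which act in Cajal-Retzius neurons and in other newly born neurons. The log2 level of Ebf2 was 0.07, 0.21, 0.50 and 0.36 in the controls and 0.47, 0.47 and 0.28 in the cKO-labelled arrays. All 3 cKO-labelled arrays were inside the control range, and the difference was 0.12 ± 0.12 (SE; 95% interval -0.16 to 0.41; limma, adjusted p = 0.755). It was 0.05 without control replicate 1, 0.19 without control replicate 3, 0.19 without cKO replicate 3 and 0.02 with array weights. The brightest Ebf3 probe, A_51_P246543, was at 0.98, 1.10, 1.14 and 1.19 in the controls and at 1.30, 1.20 and 1.11 in the cKO-labelled arrays, which overlapped with a difference of 0.10 ± 0.09 (SE; 95% interval -0.11 to 0.31; limma, adjusted p = 0.724). The Ebf3 difference was 0.06 without control replicate 1 and 0.05 without cKO replicate 1. Neither sign held within slide 2, where Ebf2 differed by -0.05 and Ebf3 by -0.01.

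The second Ebf3 probe, A_51_P259245, was not well above background on any control and was well above it on 3 of 3 cKO-labelled arrays. Its log2 level was -4.47, -5.08 and -7.43 in cKO replicates 1 to 3, against -7.59, -7.59, -6.98 and -6.91 in the controls, where -7.59 is the floor set on all arrays. Its mean was at least 3.04-fold higher in the cKO-labelled arrays, taking for each control the higher of its own signal and the floor. That mean rests on cKO replicates 1 and 2. The probe met the filter of 3 arrays only through the cKO-labelled arrays, so no test is given for it. Replicate 3 of the cKO-labelled arrays was nevertheless below 2 controls, so the groups overlapped at this probe.

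Nhlh2 encodes a basic helix-loop-helix transcription factor of neurons that have just left the cell cycle. Its log2 level was -1.59, -1.72, -1.65 and -1.69 in the controls and -1.14, -1.31 and -1.24 in the cKO-labelled arrays. The groups were well apart, and the controls were tight: their SD of 0.06 was smaller than that of all but 9.04% of genes tested. The difference was 0.43 ± 0.08 (SE; 95% interval 0.24 to 0.62; limma, adjusted p = 0.160), 1.35-fold higher, with the lowest adjusted p of the 8 genes and rank 84 of 13350. On slide 1 alone it was 0.51, on slide 2 alone 0.40 and in litter 2 alone 0.50, and it ran from 0.37 to 0.51 over the 28 alternatives, with adjusted p from 0.0841 to 1.

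**Figure D2:**
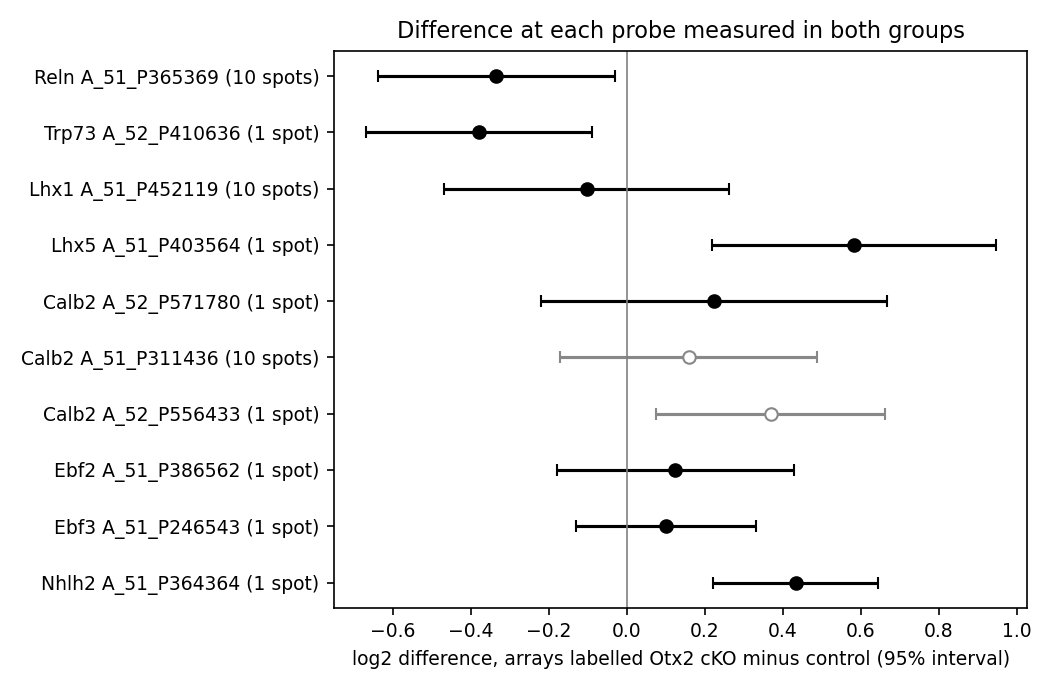
Log2 difference, arrays labelled Otx2 cKO minus control (x axis), with limma's 95% interval, for the 10 probes measured in both groups (1 row each, with the number of spots per array); filled points are the probe that stood for the gene. Trp73 and Reln lie below 0, Lhx5 and Nhlh2 above it, and the 3 Calb2 probes share a sign.

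**Figure D3:**
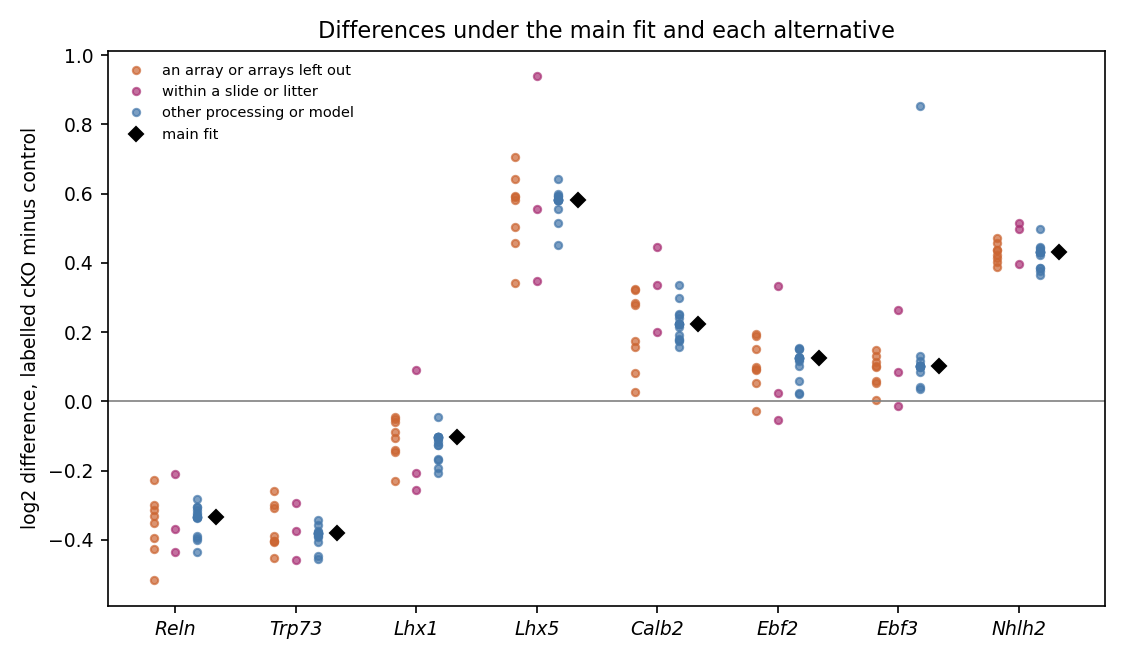
Log2 difference, arrays labelled Otx2 cKO minus control (y axis), of each Cajal-Retzius gene under the processing reported (black diamond) and 28 alternatives: arrays left out (orange), fits within a slide or litter (purple) and other processing or models (blue). Reln and Trp73 stay below 0 and Lhx5, Calb2 and Nhlh2 above it in all 28, while Lhx1, Ebf2 and Ebf3 cross it; the high Ebf3 point of 0.85 is the mean of its probes, which includes the dim probe.

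The 8 differences did not share a sign, and none passed the test. Within an array, the log2 ratio of the Lhx5 to the Reln signal was -2.98, -2.81, -2.75 and -2.37 in the controls and -1.74, -1.85 and -1.84 in the cKO-labelled arrays. These ratios compare arrays and not the abundance of the transcripts, and they were chosen after the values were seen, so they carry no test. Each pair sets a gene with a positive difference over one with a negative difference, so a higher mean ratio follows from that choice. For Lhx5 over Reln the groups were apart, by a mean of 0.92, and the cKO-labelled arrays lay close together (SD 0.06). The ratio of Lhx5 to its paralog Lhx1 was 1.60, 1.32, 1.44 and 1.47 in the controls and 2.31, 2.14 and 1.98 in the cKO-labelled arrays, and that of Nhlh2 to Reln was higher by a mean of 0.77 in the latter. Lhx5 over Trp73 was higher by 0.96.

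**Figure D4:**
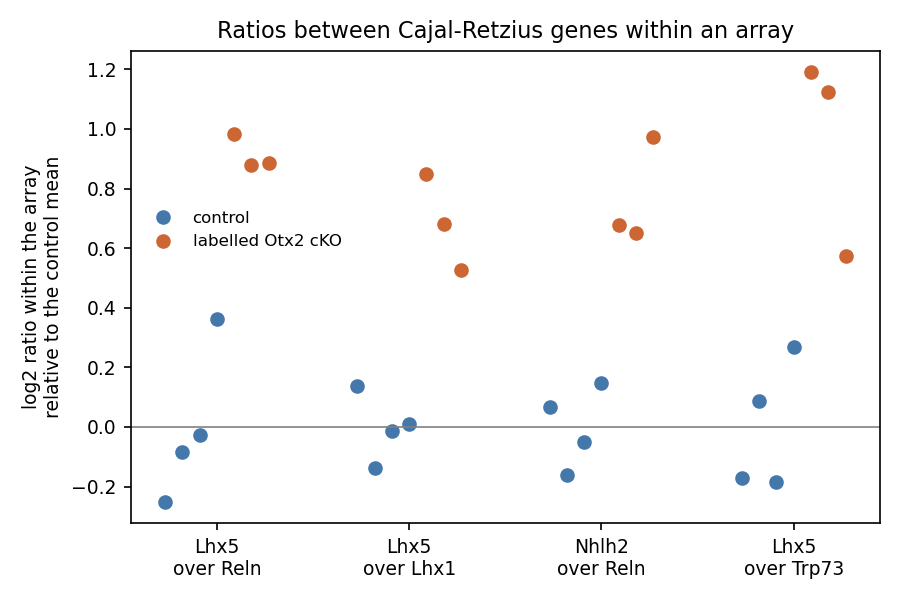
Log2 ratio of the signals of a pair of genes within an array, relative to the control mean of that ratio (y axis), for 4 pairs (x axis); each point is 1 embryo. For each pair all 3 cKO-labelled arrays lie above all 4 controls, and the pairs were chosen after the values were seen.

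Likeness of pattern was measured as the root mean square difference between log2 values, each gene centred on its own mean over the 7 arrays. Among pairs of the 8 genes, Ebf2 and Ebf3 had the smallest value at 0.0842. The measure is not scaled, and these genes also varied little over the 7 arrays (SD 0.160 and 0.101, against 0.364 for Lhx5). Reln and Trp73 stood at 0.195 and Lhx5 and Nhlh2 at 0.200. The largest values were those of Trp73 with Lhx5, at 0.529, and Reln with Lhx5, at 0.485. Over the 12675 genes tested that had a value on all 7 arrays, the 3 nearest to Reln were Alg3 at 0.0625, Cln3 at 0.0653 and Mrps27 at 0.0700. Those nearest to Trp73 were Plppr4 at 0.0555, Nrxn3 at 0.0732 and Tnfsf11 at 0.0756, and those nearest to Nhlh2 were Tmem230 at 0.0581, Vgll4 at 0.0651 and Cdh20 at 0.0848. The patterns of Ebf2 and Ebf3 had Nr2f6 in common among their nearest genes, at 0.0645 and 0.0432, beside Arid5a and Fbxo15 for Ebf2 and Lbx2 and Scfd2 for Ebf3. For Lhx5 the nearest were Ccn5 at 0.0955, Prkg1 at 0.115 and Nefh at 0.122. For Lhx1 the nearest were Fam160b1, Mafg and Stat3, at 0.0486 to 0.0754, and for Calb2 they were Shroom3, Eno1 and Klhl23, at 0.0671 to 0.101.

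Reelin acts through the receptors Vldlr and Lrp8, which recruit the adaptor Dab1; Src-family kinases phosphorylate Dab1, and Crk proteins and Rapgef1 carry the signal on. Of 17 genes of this pathway 15 were tested, and none passed the test, beside 0.195% of all genes; 5 differences were positive and 10 negative, with a median of -0.14 against 0.01 over all genes. The groups did not overlap for 3 of the 15, all lower in cKO-labelled arrays, beside 6.99% of all genes. Dab1 was at 2.03, 1.76, 1.80 and 1.74 in the controls and at 1.72, 1.46 and 1.57 in the cKO-labelled arrays, a difference of -0.25 ± 0.11 (limma, adjusted p = 0.476) that was -0.09 on the mean of its probes and -0.14 in litter 2 alone. Itga3, an integrin subunit that binds Reelin, differed by -0.35 ± 0.11, and the exchange factor Rapgef1 by -0.26 ± 0.09 (limma, adjusted p = 0.367 and 0.391). The receptors overlapped, with Vldlr at -0.16 ± 0.12 (-0.07 without control replicate 3) and Lrp8 at -0.14 ± 0.09. The median kept its sign in all 11 alternatives run for lists, between -0.22 and -0.07.

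Of 13 other genes known from Cajal-Retzius neurons, all were tested and none passed the test; 5 differences were positive and 8 negative, with a median of -0.05 that ran from -0.11 to 0.05 over 11 alternatives and was positive in 3, among them without control replicate 3 (0.02). Lhx9, a LIM-homeodomain gene, was at 0.72, 1.28, 0.93 and 0.99 in the controls and at 1.35, 1.47 and 1.86 in the cKO-labelled arrays. It was higher in all 3, by 0.58 ± 0.17 (limma, adjusted p = 0.326). Nhlh1, the close paralog of Nhlh2, had unflagged values on 4 arrays, 1.03 and 0.996 in controls and 1.20 and 1.29 in cKO-labelled arrays, a difference of 0.23 ± 0.12 that was 0.10 with outlier spots kept and 0.08 in the authors' deposited table. Car10, a carbonic anhydrase-related gene, was lower in every cKO-labelled array, by -0.35 ± 0.11 on the log2 scale (limma, adjusted p = 0.336). The transcription factor Tbr1 ranged from 2.88 to 3.15 in controls and from 2.74 to 3.18 in cKO-labelled arrays, and the chemokine receptor Cxcr4, which keeps these neurons under the meninges, from -1.93 to -1.57 and from -2.13 to -1.80, so both overlapped.

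Markers of the septal source were present. Dbx1, a homeobox gene of progenitors in the septum and ventral pallium that give rise to Cajal-Retzius neurons, was at -0.36, -0.28, 0.33 and 0.80 in the controls and at 1.01, 1.16 and 1.56 in the cKO-labelled arrays. It was higher in all 3, by 1.12 ± 0.30 (limma, adjusted p = 0.303), with large spread among the controls, and by 1.32 on slide 1 alone, 0.80 on slide 2 alone and 1.26 in litter 2 alone. Fgf8, the ligand of the rostral midline, was at -2.63, -3.07, -3.07 and -1.71 in the controls and at -2.83, -0.65 and -4.77 in the cKO-labelled arrays, which spanned both extremes. Fgf17, of the same domain, ran from -6.81 to -4.58 in controls and from -7.59 to -3.13 in cKO-labelled arrays, and Zic1 was well above background on all 7 arrays but unflagged on 1, so it was not tested. The WNT modulator Sfrp2 overlapped at 0.14 ± 0.10, and was at 0.07 without cKO replicate 3. Of 12 genes of the septum, rostral midline and Dbx1 domain 11 were tested and none passed, with 6 positive and 5 negative differences and a median of 0.04. That median was positive in 5 of 11 alternatives and ran from -0.39 to 0.25; it was -0.09 without control replicate 1, -0.08 without cKO replicate 1 and -0.15 without cKO replicate 2. The per-array medians of the 10 genes with a value on all arrays overlapped, from -0.12 to 0.39 in controls and from -0.35 to 0.62 in cKO-labelled arrays. The summed signal of the 10 measured on all arrays ran from 13.7 to 16.3 times the 75th percentile in controls and from 16.3 to 17.9 in cKO-labelled arrays, with a narrow overlap between cKO replicate 3 and control replicate 4. The part of septal content in the member differences was not tested.

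Markers of the hem were weak or uneven. Among its defining markers, Wnt2b and Lmx1a were not well above background on any array, and Wnt3a was well above it on 3 of 4 controls and 1 of 3 cKO-labelled arrays. The R-spondin gene Rspo2 was well above background throughout, at -2.77, -4.53, -3.94 and -4.55 in the controls and -3.96, -3.56 and -5.24 in the cKO-labelled arrays, with overlap. Of 16 hem genes 13 were tested and none passed, with 5 positive and 8 negative differences and a median of -0.26, which was between -0.92 and 0.14 over 11 alternatives. It turned positive without control replicate 1 (0.08), control replicate 4 (0.05), cKO replicate 1 (0.13) or cKO replicate 3 (0.14), and was -0.50 without control replicate 2 and -0.61 without cKO replicate 2. Rspo1 differed by -1.95 ± 0.71 and Rspo3 by -0.50 ± 0.17 (limma, adjusted p = 0.413 and 0.390); the groups overlapped for Rspo1. Rspo1 was at -1.22 without cKO replicate 3 and ran from -3.50 to -1.22 over the alternatives, and Rspo3 from -0.92 to -0.23, the smallest with normexp background correction. The summed hem signal ran from 1.73 to 4.02 in controls and from 0.755 to 3.90 in cKO-labelled arrays, relative to the 75th percentile, and Ttr, which marks choroid plexus, did not rise well above background on any of the 7 arrays. Of 7 choroid plexus genes tested none passed; Folr1 ranged from -4.63 to -4.21 in controls and from -4.38 to -3.65 in cKO-labelled arrays, Kcne2 was well above background on 4 of 4 controls and 1 of 3 cKO-labelled arrays, and Kl on 1 and 2.

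The hem values moved with those of mesenchyme and meninges. Per array, a median was taken over the genes with a value on all 7 arrays, with the control mean at 0. For mesenchyme and meninges these were 12 of the 15 genes. Their median was 0.36, -1.85, 0.55 and 0.77 in the controls and -1.32, 1.87 and -0.92 in the cKO-labelled arrays. That of the hem list was 0.59, -0.63, 0.01 and 0.60 and then -0.41, 0.89 and -0.83. In each list the same 3 arrays were lowest and cKO replicate 2 was highest. None of the mesenchyme genes passed the test, and the summed signal of 12 of them ran from 3.61 to 23.1 in controls and from 3.86 to 40.7 in cKO-labelled arrays, so the groups overlapped. The collagen genes Col1a1 and Col3a1 and the meningeal factor Foxc1 were well above background on all 7 arrays, and Col3a1 spanned -1.20 to 3.14 in controls and -1.16 to 3.98 in cKO-labelled arrays. Rgs5, of pericytes, and Dcn, a matrix proteoglycan, had the smallest p of the list (limma, adjusted p = 0.657 and 0.652). With the mesenchyme median as a covariate the differences of Reln, Trp73, Lhx5 and Nhlh2 were -0.34, -0.38, 0.58 and 0.43, the same to 2 decimals as without it. That median averaged nearly the same in both groups, so as a covariate it could hardly move a difference between them. The part of mesenchyme content in the member differences was not tested. Without control replicate 2 and cKO replicates 1 and 2 the differences of Reln, Trp73, Lhx5 and Nhlh2 were -0.52, -0.26, 0.34 and 0.40. Each of these sets cKO replicate 3 alone against the remaining controls.

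Pan-neuronal genes were lower in sum in every cKO-labelled array. Over 12 genes the summed signal ran from 185.9 to 198.9 in controls and from 145.5 to 182.8 in cKO-labelled arrays, relative to the 75th percentile, with cKO replicate 2 lowest. Such a sum is weighted towards the brightest probes. The per-array medians of the same genes overlapped, from -0.06 to 0.05 in controls and from -0.36 to -0.02 in cKO-labelled arrays, with the control mean at 0. Of 13 such genes tested none passed; 3 differences were positive and 10 negative, with a median of -0.17 that ran from -0.25 to -0.05 over 11 alternatives, the smallest without cKO replicate 2. Tubb3, the neuronal tubulin gene, was lower in every cKO-labelled array, with a difference of -0.37 ± 0.11, and so was Stmn2, a regulator of microtubules in growing axons, with -0.28 ± 0.11 (limma, adjusted p = 0.337 and 0.443). Reln and Trp73 lay on the same side of 0 as these genes, and Lhx5 and Nhlh2 on the other side; the part of neuronal content in them was not tested.

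**Figure D5:**
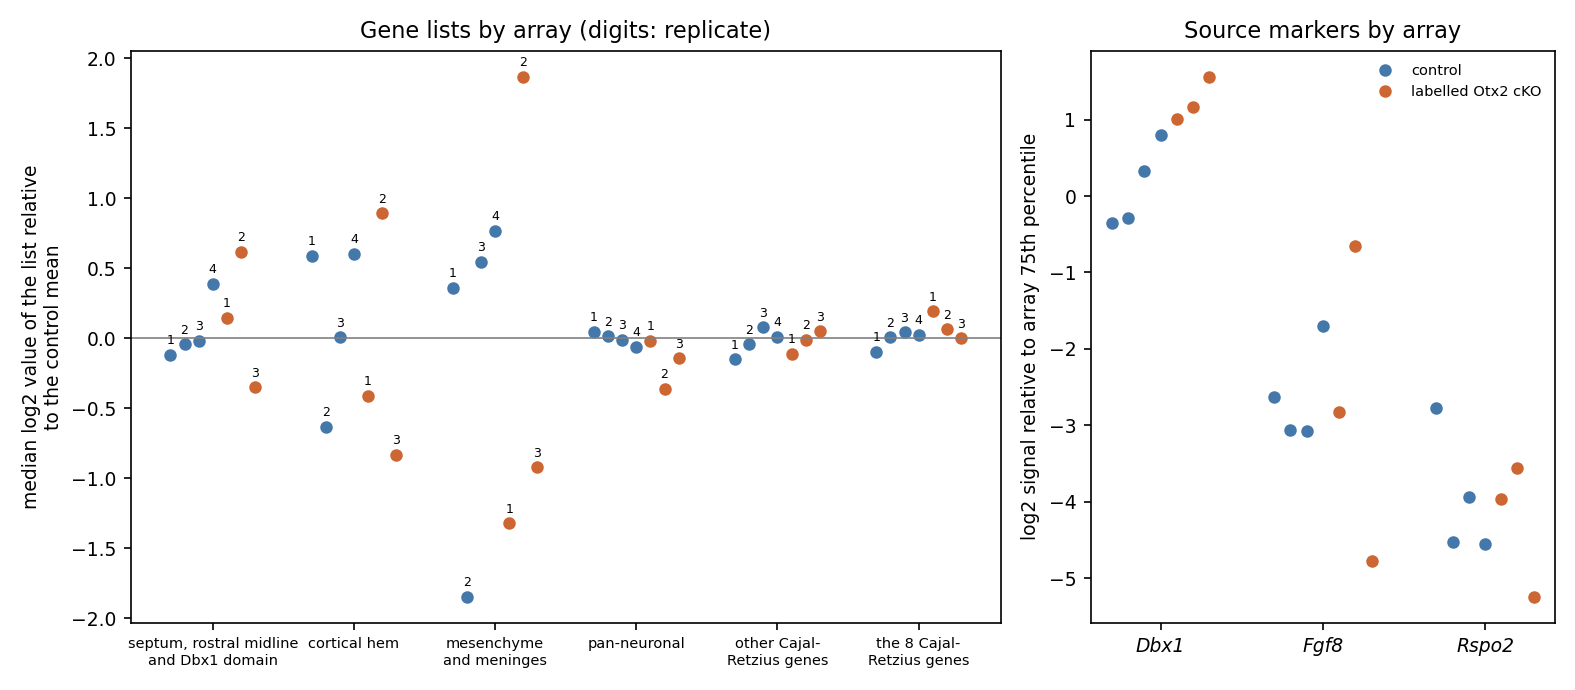
Left: median log2 value of each gene list relative to the control mean (y axis), by array, over its genes with a value on every array. The replicate number is above each point. Right: log2 signal relative to the array's 75th percentile of the septal markers Dbx1 and Fgf8 and the hem marker Rspo2. The mesenchyme and hem lists spread widely within each group, and Dbx1 lies higher in all 3 cKO-labelled arrays. The median of the 8 Cajal-Retzius genes stays between -0.10 and 0.19, but single genes among them differ in both directions and by more.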

How the data were processed

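Arrays of 7 embryos were analysed, 4 controls and 3 labelled Otx2 cKO. Cy3-labelled target amplified from total RNA was hybridised, per the labels' protocols. Per the file headers, Feature Extraction 10.7.3.1 gave a background-subtracted, detrended intensity per spot; the submitters' processing notes name version 10.5. A second deposited table holds log2 values whose order follows the median signal and whose scale and centring are not given in the sources used here; its column medians were 7.61 to 7.64, and it served as an alternative.

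Control spots and outlier spots (1.24% to 2.51% per array) were left out. Deposited intensities were scaled to the 75th percentile of each array, floored at a common level (log2 value -7.59) and taken to log2; spots of a probe were averaged. Of 41174 probes 24844 were named by 1 symbol, 0 by several and 16330 by none, through RefSeq accessions in a GRCm38.p6 gene table used for names. A gene's brightest probe stood for it if well above background on at least 3 arrays (68.4% to 72.2% of spots were). At least 2 unflagged values per group were required. Groups were compared with limma 3.58.1 in R 4.3.3 (lmFit, eBayes), adjusted by Benjamini-Hochberg over 13350 genes, threshold 0.05. Errors after ± are SEs. Each array was 1 embryo, so p-values measure the spread between embryos, and the number of arrays limits precision. The fit was tested on simulated data, where it called 58% of changes of 1 log2 unit and 91% of changes of 2 in the right direction. For each size it also called 8 unchanged genes. No smaller change was simulated, and every member difference on its brightest probe was smaller.

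The members and gene lists were chosen with earlier results of these data known. Genes were named by rule: all members, Otx2, in each list up to 4 genes past the threshold or otherwise the 2 with the smallest p, defining markers, and the 3 genes nearest to each member; Dab1, Vldlr, Lrp8, Nhlh1, Lhx2, Tbr1 and Cxcr4 were added after their values were seen, and 1 gene that the rule names is not reported here. The files hold no mean signal column, so the normexp alternative (offset 50) used the median signal. Replicate number, slide and litter were tried as blocks.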

Additional observations from a re-analysis of the deposited data

Results flagged for a closer look

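Among the 4 controls, control replicate 3 stood apart for Trp73, with a log2 level of -3.04 where the other controls lay between -3.34 and -3.32; this gap made up 0.948 of the range of the controls. Without it the Trp73 difference was -0.31, still with every cKO-labelled array below every control.

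For the mesenchyme and meninges list, control replicate 2 stood apart with a median of -1.85 relative to the control mean, where the other controls lay between 0.36 and 0.77; this gap made up 0.844 of the range. Both gaps were past the 95% critical value of Dixon's test, which chance alone also passes in some groups.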

How the results depend on the processing

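None of the 8 Cajal-Retzius genes was called in any of 28 alternatives. Of 224 values of these genes 220 kept their sign, and 4 reversed: Lhx1 within slide 1 (0.0916), Ebf2 and Ebf3 within slide 2 (-0.0527 and -0.0121), and Ebf2 without control replicate 2 and cKO replicates 1 and 2 (-0.0279); the cause was not tested. The last setting, which leaves out the arrays with the farthest mesenchyme level, was chosen after seeing the data and leaves 1 cKO-labelled embryo. Over all genes, 11 were called higher and 15 lower. The authors' table gave 17 and 26, a variance trend 17 and 35, slide as a block 6 and 7, and no filter on dim probes 0 and 1 (limma; 1707 at an unadjusted p under 0.05). Normexp called 26 lower, array weights 27 lower, and the mesenchyme covariate 6 higher. No gene was called (0 and 0) with litter as a block, within slide 1, within slide 2, within litter 2 or without the 3 arrays; unadjusted p was under 0.05 for 726, 420, 1213, 713 and 1543 genes. Leaving out 1 array gave 0 to 11 higher and 0 to 21 lower. The Otx2 probe kept its direction in all 28. Tcf4 passed the threshold only with the variance trend (-0.63). Centring on array medians moved the median of all genes from 0.01 to -0.06.

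Replicate numbers did not pair the samples: deviations of same-numbered arrays correlated at 0.115, -0.532 and 0.028. With the replicate block 0 genes were called higher and 0 lower (limma; 1386 at an unadjusted p under 0.05), and Nhlh2 differed by 0.42 (adjusted p = 0.376).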

Other observations

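Other genes of the dissected tissue gave these values. Of 10 subpallial GABAergic genes tested none passed the test and all 10 differences were negative, with a median of -0.22 that ran from -0.36 to -0.07 over 11 alternatives, at -0.35 without cKO replicate 1 and -0.36 without cKO replicate 3; Gad1, which makes GABA, was lower in every cKO-labelled array with a difference of -0.68 ± 0.16 (limma, adjusted p = 0.263). Of 10 pallial glutamatergic genes none passed. Neurod6, of young pallial neurons, was at 2.78, 2.27, 2.13 and 2.26 in controls and 1.79, 1.36 and 1.61 in cKO-labelled arrays, while Emx2, of pallial progenitors including those of the hem, was higher by 0.54 ± 0.12 (limma, adjusted p = 0.250), with every cKO-labelled array above every control. Slc17a6, the glutamate transporter that Cajal-Retzius neurons use, overlapped at 0.12 ± 0.12 (0.02 without cKO replicate 3), and so did Emx1, of the dorsal pallium, at -0.17 ± 0.19.

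Of 23 paralogs and partners of the 8 genes 19 were tested and none passed, with 6 positive and 13 negative differences and a median of -0.07 that ran from -0.15 to -0.01 over 11 alternatives. Tcf4, a partner of basic helix-loop-helix factors such as Nhlh2, was at 3.65, 3.62, 3.66 and 3.50 in controls and 3.18, 2.75 and 3.00 in cKO-labelled arrays, a difference of -0.63 ± 0.12 (limma, adjusted p = 0.160). Lmo3, a LIM-only protein gene, differed by -0.47 ± 0.14 and Lhx2 by 0.36 ± 0.15 (limma, adjusted p = 0.328 and 0.473).

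In the lists of neighbouring regions, Hmx2 and Hmx3 rose by 1.72 ± 0.16 and 2.11 ± 0.24, and Gbx2 and Tal2 fell, with differences of -1.91 ± 0.19 and -2.29 ± 0.28 (limma, adjusted p = 0.0182, 0.0323, 0.0222 and 0.0428). These 4 calls held in 14, 12, 15 and 11 of 28 alternatives, in that order. Each of them ended without control replicate 2, 3 or 4, without cKO replicate 2 or 3 and with no filter on dim probes. On the mean of its probes Hmx2 differed by 1.39 (limma, adjusted p = 0.136). With slide as a block the differences of Hmx2, Hmx3 and Tal2 were 1.72, 2.14 and -2.29 and their calls ended (limma, adjusted p = 0.0528, 0.0726 and 0.105), while that of Gbx2 held (-1.85, adjusted p = 0.0417). The calls of Hmx3 and Gbx2 also ended without control replicate 1, and that of Tal2 without cKO replicate 1. Their differences over 28 alternatives ran from 1.39 to 2.01, 1.79 to 2.68, -2.11 to -1.58 and -2.55 to -1.73, in the same order. The hypothalamus and preoptic list had 6 positive and 2 negative differences among 8 genes tested. Its median was 0.42, and 0.09 to 1.03 over 11 alternatives. The diencephalon, midbrain and hindbrain list had 4 positive and 3 negative among 7, with a median of 0.14 (-0.01 to 0.42). No other gene of either list passed, and most genes of the second list did not share the fall of Gbx2 and Tal2. Sim1, of the hypothalamus, was well above background on 2 of 4 controls and 3 of 3 cKO-labelled arrays, and Pax7, of the dorsal midbrain, on 1 and 1. The hypothalamic gene Otp, the midbrain gene En1 and the hindbrain gene Hoxb2 were well above background on 0 arrays.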
